A study of Homo sapiens with 46 samples.

Results

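The comparison described here asks what an siRNA against 4EHP adds to the ribosome footprints of cells that already received an siRNA against ASCC3. It rests on 4 monosome libraries of the 46 samples in the series, chosen by their labels: ASCC3 knockdown (replicates 1 and 2) and ASCC3 with 4EHP knockdown, called the combined knockdown below (replicates 1 and 2). All came from HEK293 Flp-In T-REx, a human embryonic kidney line that carries a site for inserting a transgene and a tetracycline repressor. Per the labels, siRNA was transfected at 75 nM for 72 h and again at 30 nM for 24 h. Both groups received the ASCC3 siRNA, and each group name gives the siRNA used and not a measured loss of protein. The amounts recorded are the same for single and combined knockdowns. Whether they hold for each siRNA or for the total is not known here, so the dose of ASCC3 siRNA may differ between the groups. The same arm of the study also holds control, ABCE1 and 4EHP knockdown cells, for 10 monosome, 8 disome and 8 RNA-seq libraries in all. The labels do not say whether replicates are separate cultures of this line, and the spread behind each p-value is therefore that of libraries and may be technical.

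A monosome footprint is the stretch of mRNA that a single ribosome shields from RNase, so the count over a coding sequence reflects both how much mRNA is present and how many ribosomes it carries. A disome footprint is left by neighbouring ribosomes in contact, as when a moving ribosome runs into a stalled one. ASCC3 is the helicase subunit of a complex that takes apart the leading ribosome of such a collision. 4EHP (gene EIF4E2) binds the mRNA cap in competition with the initiation factor eIF4E; together with GIGYF proteins it lowers initiation on mRNAs where ribosomes have collided and on mRNAs marked by microRNAs or by RNA-binding proteins.

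The files name transcripts by Ensembl ID and do not pair them with gene names. The transcripts of EIF4E2 and ASCC3, the lists of pathway genes and the markers of the cell line could therefore not be looked up, and knockdown could not be checked on the targeted genes. Transcripts are described by ID and coding length, with at most 2 IDs in each direction of a comparison. Levels are given in CPM, the count scaled to a library total of 1e6. Isoforms of a gene share reads, so each group of isoforms was reduced to the member with the most counts, and several of the resulting transcripts may still belong to the same gene.

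The total counts were 4677576 and 14276001 in the ASCC3 knockdown monosome libraries and 10106815 and 29096832 in those of the combined knockdown. The other 6 monosome libraries of the arm held 10092703 to 22063128 counts, and the RNA-seq libraries 34097654 to 56402314. ASCC3 replicate 1 was the shallowest monosome library of the arm. Beyond depth, the ratio of the ASCC3 replicates varied with coding length across transcripts (Spearman 0.26 over 22401 transcripts), against 0.19 for ABCE1, 0.12 for 4EHP, 0.09 for the combined knockdown and 0.00 for the control. The part of this drift in the results was not tested.

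Adding 4EHP siRNA to ASCC3 siRNA changed the monosome count of 244 of 29553 transcripts tested (0.826%; edgeR's quasi-likelihood test, adjusted p under 0.05). Of these, 141 rose (0.477% of all tested) and 103 fell (0.349%). The changes were small: the median log2 fold change was 0.62 among the rises and -0.41 among the falls, beside 0.06 over all transcripts tested. The libraries of both groups did not overlap for any of the 244 changed transcripts, and this also held for 39.5% of all tested, 7535 higher and 4133 lower in the combined knockdown. Among all 7993 transcripts with a mean of at least 8 CPM, 94 rose, by 0.25 to 0.98 on the log2 scale, and 84 fell, with log2 fold changes of -0.80 to -0.21. The 38 changed transcripts past 1 in either direction, 30 higher and 8 lower, were all under 8 CPM. With TMM scaling, which sets the median transcript near 0, the split turned to 86 rises and 206 falls. The count also rests on the libraries: 174 were called without ASCC3 replicate 1, 50 without ASCC3 replicate 2, 137 without combined replicate 1 and 148 without combined replicate 2, while a fit of these 4 libraries alone called 61 and DESeq2 122.

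**Figure D1:**
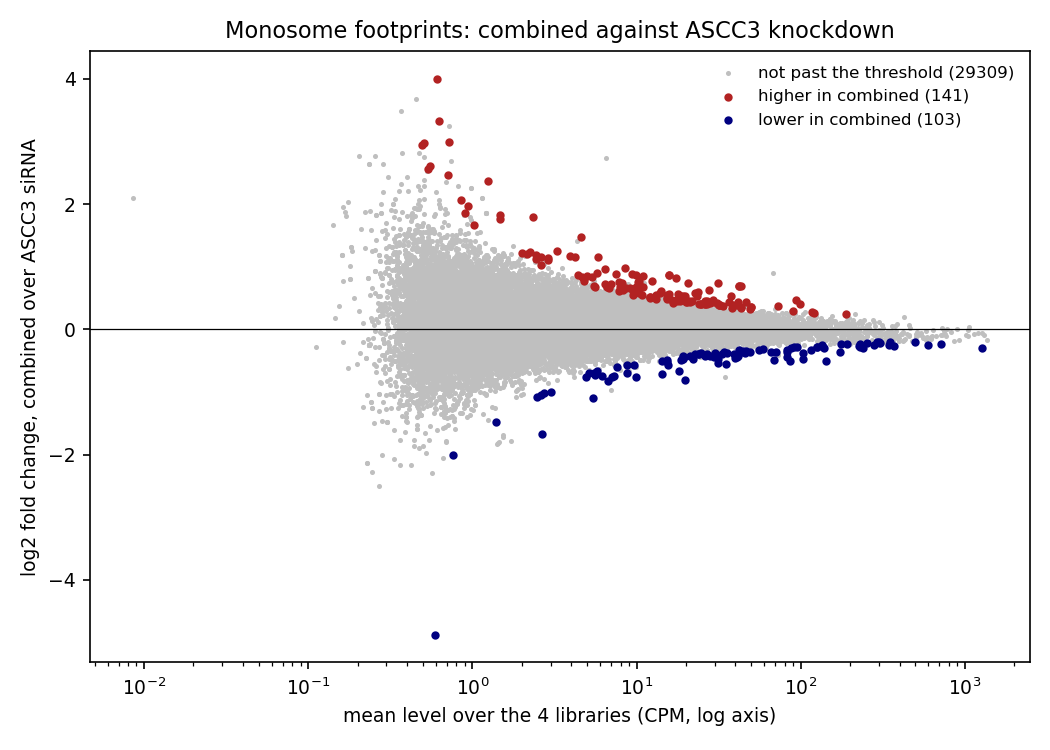
Each point is a transcript, placed by its mean level over the 4 monosome libraries (CPM, log axis) and its log2 fold change in the combined over the ASCC3 knockdown; red points rose and blue points fell at an adjusted p under 0.05. Changes above 1 or below -1 all lie at mean levels under 8 CPM, and at higher levels the changed transcripts form thin bands on both sides of 0.

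The rise with the greatest log2 fold change at 8 CPM or more was that of ENST00000563995.1, with a coding sequence of 82 codons. It had 4.49 and 6.51 CPM in the ASCC3 knockdown and 10.9 and 12.2 CPM in the combined knockdown, so the groups were far apart. The log2 fold change was 0.98 with an SE of 0.17 (edgeR's adjusted p = 0.00034). Its level was also high with 4EHP siRNA alone, at 8.62 and 9.40 CPM, and low in the control, at 5.40 and 4.27 CPM. The 4 libraries with 4EHP siRNA were therefore the 4 highest of the arm. RNA-seq levels had the same order over a narrower range: 1.78 and 1.65 CPM in the ASCC3, 2.11 and 2.24 CPM in the combined and 1.83 and 2.05 CPM in the 4EHP knockdown, and 1.67 and 1.61 CPM in the control. The RNA change in the combined over the ASCC3 knockdown did not pass its test, a log2 fold change of 0.34 with an SE of 0.21 (edgeR's adjusted p = 0.58).

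In disome footprints of ENST00000563995.1 the gap was wider. The lone ASCC3 disome library held 15 counts, which is 9.06 CPM with an exact 95% binomial interval of 5.07 to 15.0 CPM, for counting error only. The combined knockdown had 30.9 and 37.3 CPM, 4EHP siRNA alone 25.9 and 47.8 CPM, and the control 9.97 and 9.22 CPM. Disome footprints of this transcript were thus high in each of the 4 libraries with 4EHP siRNA and low in the others named, with no test because the ASCC3 group has 1 disome library.

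ENST00000327492.4 (345 codons) had 6.63 and 6.86 CPM in the ASCC3 knockdown and 10.2 and 13.9 CPM in the combined knockdown. Its log2 fold change was 0.89 with an SE of 0.16 (edgeR's adjusted p = 0.0011). With 4EHP siRNA alone it had 9.51 and 11.2 CPM, which overlap the control at 8.27 and 9.58 CPM, a log2 fold change of 0.23 with an SE of 0.14 (edgeR's adjusted p = 0.61). The difference between both 4EHP effects did not pass its own test (0.66, SE 0.22, edgeR's adjusted p = 0.44). The call was lost without ASCC3 replicate 2 or without combined replicate 2.

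The other 8 of the 10 largest rises had coding lengths of 135 to 438 codons. A pair of them, both of 162 codons, had counts within 1% of each other although they stand 218 lines apart in the files. They cannot be told apart and count as the same signal. Another pair among the 141 rises, both of 276 codons and 220 lines apart, likewise had near-equal counts. All counts of rises given here, also of those that kept their call, include both members of each pair. The signal of 162 codons went from 10.3 and 11.5 CPM with ASCC3 siRNA to 21.4 and 19.8 CPM in the combined knockdown. In disomes it went from 12.1 CPM to 41.4 and 42.2 CPM. Its RNA-seq levels were higher too, from 8.15 and 7.67 CPM to 9.33 and 10.9 CPM, with no RNA call (edgeR's adjusted p = 0.38). A transcript of 163 codons moved likewise in footprints: 6.20 and 7.50 CPM became 12.9 and 13.1 CPM in monosomes, and 18.7 CPM became 55.3 and 72.9 CPM in disomes. Its RNA-seq levels were 9.50 and 10.8 CPM with ASCC3 siRNA and 9.68 and 10.5 CPM in the combined knockdown, which overlap. It was the exception, since the RNA fold change of the other 9 largest rises was above 0. Among them, a transcript of 211 codons also rose in RNA, from 6.11 and 6.89 CPM to 12.1 and 11.6 CPM (0.87, SE 0.14, edgeR's adjusted p = 0.036).

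Among the falls, ENST00000393033.9 (334 codons) moved most. It had 23.9 and 26.5 CPM with ASCC3 siRNA and 13.5 and 15.4 CPM in the combined knockdown, with no overlap. The log2 fold change was -0.80 with an SE of 0.11 (edgeR's adjusted p = 7.6e-06). 4EHP siRNA alone gave 12.1 and 14.5 CPM and the control 21.0 and 21.9 CPM. The transcript was thus low in every library with 4EHP siRNA. RNA-seq levels were lower too, from 14.7 and 14.5 CPM to 9.95 and 10.0 CPM, but this did not pass the RNA test (-0.55, SE 0.16, edgeR's adjusted p = 0.26). The monosome call was lost without ASCC3 replicate 2.

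ENST00000587210.1 (159 codons) followed the same order. Its monosome level was 12.0 and 12.8 CPM with ASCC3 siRNA and 7.32 and 7.42 CPM in the combined knockdown, a log2 fold change of -0.77 with an SE of 0.15 (edgeR's adjusted p = 0.0028). The control had 10.2 and 12.1 CPM and 4EHP siRNA alone 5.25 and 7.80 CPM. Its call was lost without ASCC3 replicate 2 or without combined replicate 2. The other 8 of the 10 largest falls had 84 to 721 codons, and all 8 were below 0 in RNA as well. Without ASCC3 replicate 2, 3 of the 10 listed rises and 2 of the 10 listed falls still passed, and none of the 20 changed direction under any alternative tried.

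**Figure D2:**
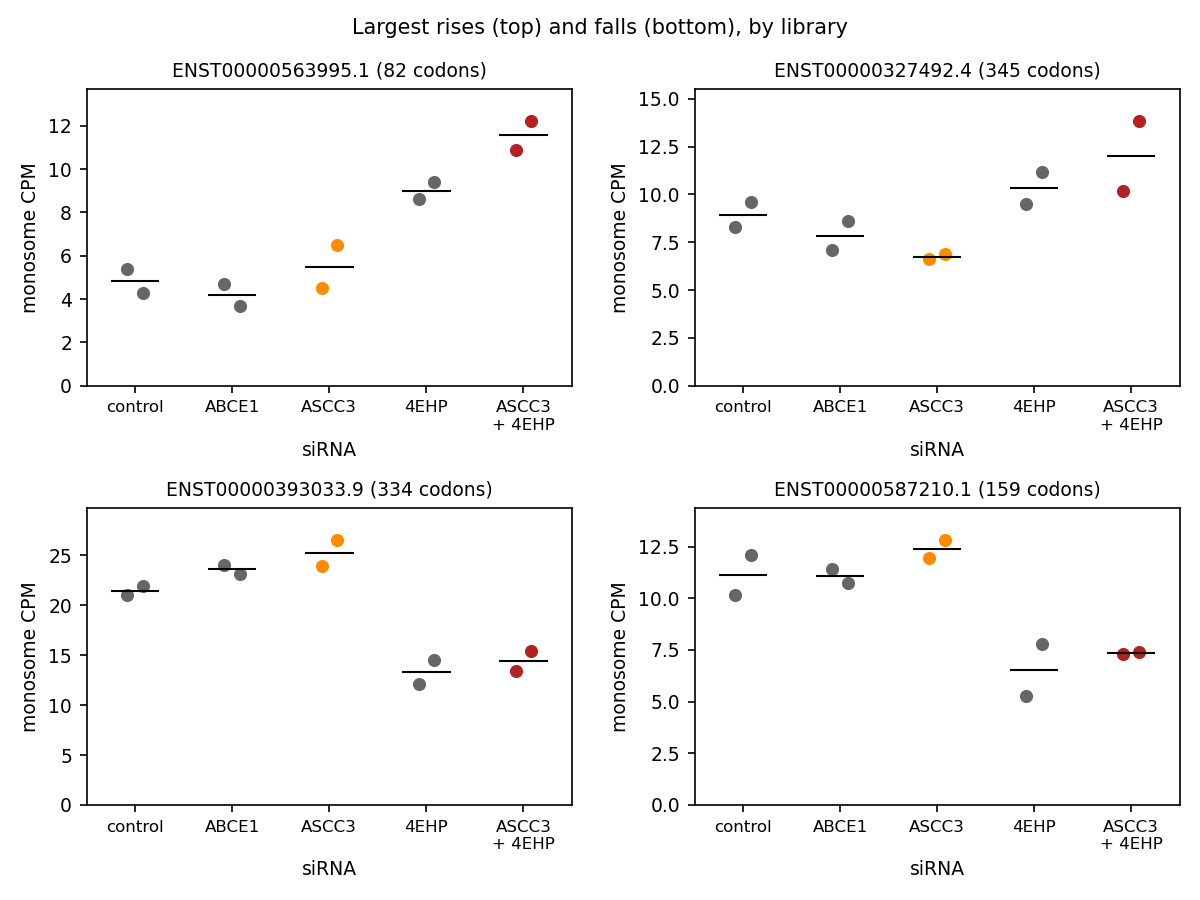
Monosome level (CPM, axis from 0) of the transcripts with the 2 largest rises (top) and the 2 largest falls (bottom) in each of the 10 libraries of the knockdown arm; points are libraries and bars are means of 2. In the lower panels the 4 libraries with 4EHP siRNA are the 4 lowest, and ENST00000563995.1 has its 4 highest levels there.

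The shortest class of coding sequences held no rises. Of 1484 transcripts tested with 1 to 50 codons, 0 rose and 8 fell (0.539%, edgeR, adjusted p under 0.05). Of all tested, 0.477% rose and 0.349% fell. With TMM scaling this class also held 0 rises. It took only 1.28% ± 0.04 (SD, n = 2) of the ASCC3 knockdown counts. Whether the lack of rises goes with length or with few counts was not tested. Between 51 and 150 codons, 20 of 8950 rose and 32 fell, and between 151 and 300 codons, 48 of 7750 rose and 31 fell. Classes from 301 to 2500 codons held more rises than falls: 40 and 23 of 6206 at 301 to 600 codons, 24 and 6 of 3825 at 601 to 1200 codons, and 8 and 2 of 1107 at 1201 to 2500 codons. Over 2500 codons, 1 of 231 rose and 1 fell. With TMM scaling falls outnumbered rises in each of these classes from 1 to 2500 codons (42 against 26 at 301 to 600 codons, for example). The median log2 fold change went from 0.02 in the shortest class to 0.08 in the class over 2500 codons. With TMM scaling it went from -0.04 to 0.02 between the same classes. The ASCC3 replicates themselves drifted with length, as given above. The shares of the monosome counts that fell in each length class also lay close together. Coding sequences of 51 to 150 codons took 22.4% ± 0.6 (SD, n = 2) of the ASCC3 and 21.7% ± 0.1 (SD, n = 2) of the combined knockdown counts.

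Transcripts were also grouped by their disome to monosome ratio in the control libraries, a measure of how often ribosomes stood in contact. The median log2 fold change was 0.02 in the 1935 transcripts with the lowest ratio and 0.07 in the 1935 with the highest. Among those with the lowest ratio 14 rose (0.72%) and 22 fell, and among those with the highest 23 rose (1.19%) and 17 fell. With TMM scaling the rises were 4 and 13 and the falls 44 and 35. The correlation of the fold change with this ratio was 0.11 (Pearson, and 0.11 as Spearman) over 9672 transcripts, a description across transcripts that share libraries. Calls were denser among transcripts with many counts. Of the 5911 transcripts with the highest control monosome CPM, 1.17% rose and 1.37% fell, against 0.477% and 0.349% of all 29553 tested. They held 69 of the 141 rises and 81 of the 103 falls.

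RNA-seq of the same conditions gave few calls. In RNA, 10 of 34491 transcripts rose (0.029%) and 5 fell (0.0145%) in the combined over the ASCC3 knockdown (0.0435% in either direction; edgeR), and 3812 had an unadjusted p under 0.05. DESeq2 called 33 and 17. The replicates of the RNA-seq groups differed widely. Chi-square values for each degree of freedom were 9.60 (ASCC3), 4.41 (combined) and 15.8 (4EHP), against 2.04 in the control. The ratio of the RNA-seq replicates also varied with coding length. Spearman values were -0.39 for ASCC3, -0.33 for 4EHP, 0.13 for the combined knockdown and 0.06 for the control. Leaving out a library left 5 calls without ASCC3 replicate 1, 3 without ASCC3 replicate 2, and 1 without either combined replicate.

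Of the 141 monosome rises, 137 were tested in RNA and 115 had a log2 fold change above 0 there, against 49.9% of all transcripts tested in RNA. Their median RNA change was 0.29, and 6 were called higher. Of the 103 falls, 102 were tested in RNA, 74 were below 0, the median was -0.31 and 3 were called lower. Over the 7930 transcripts with at least 8 CPM that were tested in both assays, the monosome and RNA fold changes correlated at 0.29 (Pearson; Spearman 0.24), again across transcripts of shared conditions. Translational efficiency, the monosome change beyond the RNA change, gave 0 calls among 37149 transcripts with edgeR's interaction test (0% called), 2109 at an unadjusted p under 0.05, and 1 higher and 22 lower with DESeq2. The 0 holds for this fit: edgeR called 26 with no count filter, 9 when isoforms were not joined, and up to 3 with a library left out. For the 141 rises the median of this interaction was 0.33 and for the 103 falls -0.21, beside 0.07 for all tested. Both sets were selected on the monosome change that is part of this interaction. Their selection therefore favours medians on these sides, and no conclusion is drawn from them.

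The RNA change with the smallest p was the fall of ENST00000258416.8, of 246 codons. RNA-seq gave 14.3 and 10.6 CPM with ASCC3 siRNA and 1.77 and 1.61 CPM in the combined knockdown, and likewise 14.3 and 15.2 CPM in the control and 1.25 and 1.06 CPM with 4EHP siRNA alone. RNA was low in all 4 libraries with 4EHP siRNA and in none of the others. Whether this transcript belongs to EIF4E2, the gene that the 4EHP siRNA targets, could not be looked up. The log2 fold change in the combined over the ASCC3 knockdown was -2.89 with an SE of 0.18 (edgeR's adjusted p = 3.2e-06), and it passed under all 12 alternatives.

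Monosome footprints of the same transcript showed no clear fall. The monosome change beyond the RNA change was not called either (2.74, SE 0.66, edgeR's adjusted p = 0.83). Monosomes gave 6.41 and 11.9 CPM with ASCC3 siRNA and 14.3 and 5.40 CPM in the combined knockdown. They gave 11.2 and 6.49 CPM with 4EHP siRNA alone and 10.7 and 11.5 CPM in the control. The groups overlapped (-0.33, SE 0.58, edgeR's adjusted p = 0.91), and the replicates with 4EHP siRNA were far apart. Disome footprints were lower, as the RNA was: 46.5 CPM from 77 counts in the ASCC3 library (exact 95% interval 36.7 to 58.2 CPM) against 2.61 and 5.33 CPM in the combined knockdown. The make-up of the monosome count also moved with 4EHP siRNA. The lowest of its 8 joined isoforms held 92.4 to 96.5% of the representative's count in the 4 monosome libraries with 4EHP siRNA and 74.1 to 80.0% in the other 6. The files do not give the positions of these counts within the transcript.

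**Figure D3:**
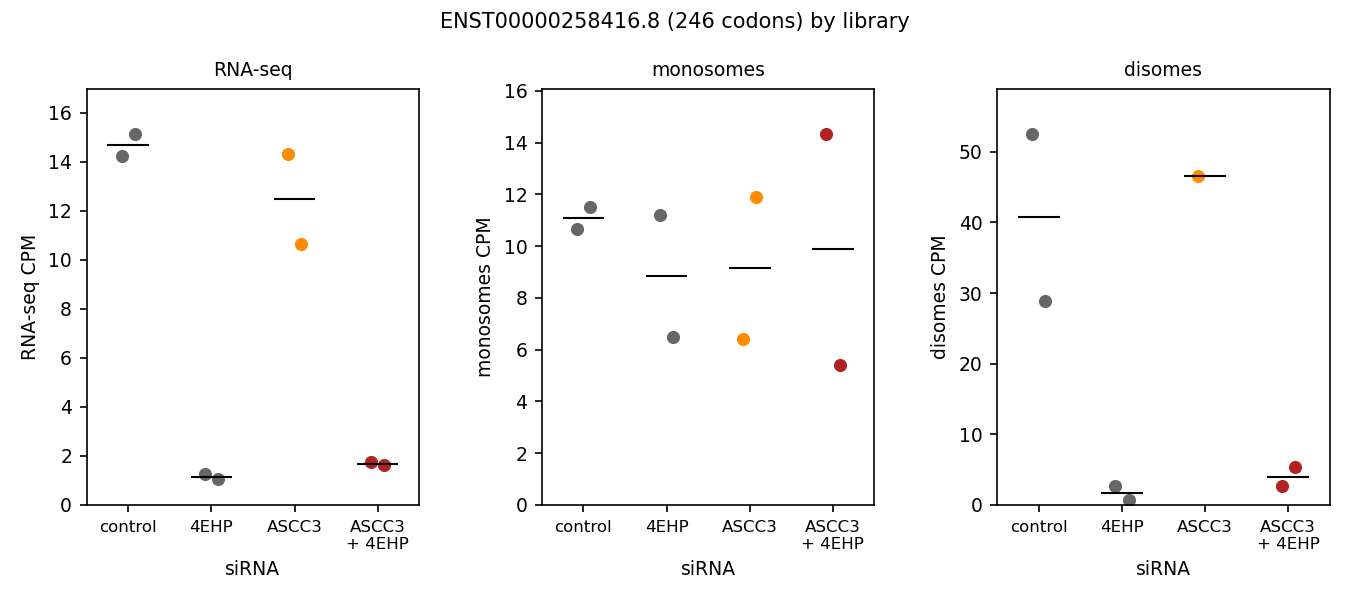
Level (CPM, axis from 0) of ENST00000258416.8 in RNA-seq, monosome and disome libraries of the control, 4EHP, ASCC3 and combined knockdowns; points are libraries and bars their means, with 1 disome library for ASCC3. RNA and disome levels are low in each library with 4EHP siRNA, while monosome levels spread from 5.40 to 14.3 CPM across groups that overlap.

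ENST00000458549.7 (381 codons) fell in RNA and in monosomes. RNA-seq gave 10.6 and 8.73 CPM with ASCC3 siRNA and 3.44 and 3.26 CPM in the combined knockdown (-1.53, SE 0.16, edgeR's adjusted p = 0.0018). Monosomes gave 3.63 and 4.20 CPM against 1.58 and 1.13 CPM, from 17, 60, 16 and 33 counts (-1.67, SE 0.27, edgeR's adjusted p = 0.00022). The RNA call was lost when either combined replicate was left out. Among the RNA rises, ENST00000341491.9 (182 codons) went from 7.20 and 5.46 CPM to 16.8 and 15.0 CPM in RNA (1.33, SE 0.16, edgeR's adjusted p = 0.0061). In monosomes it went from 2.78 and 4.97 CPM to 10.5 and 7.63 CPM (0.97, SE 0.19, edgeR's adjusted p = 0.0047).

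ENST00000302754.6 (348 codons) had 2.95 and 2.72 CPM of RNA with ASCC3 siRNA and 7.37 and 6.55 CPM in the combined knockdown (1.30, SE 0.18, edgeR's adjusted p = 0.018). In monosomes it had 10.3 and 12.3 CPM against 13.8 and 16.1 CPM, which did not pass (0.39, SE 0.13, edgeR's adjusted p = 0.20). Its control levels were lower in both assays, at 1.74 and 2.22 CPM of RNA and 4.31 and 4.54 CPM of monosomes. Both RNA rises were lost when ASCC3 replicate 2 or either combined replicate was left out, and ENST00000302754.6 also without ASCC3 replicate 1.

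Disomes of the 141 monosome rises were mostly higher as well. With at least 20 disome counts, 101 of 118 had a log2 ratio of combined to ASCC3 knockdown above 0, with a median of 0.56, beside 58.2% and a median of 0.10 for all 13194 transcripts counted this way. A ratio above 1 on the log2 scale was seen for 24 of the 118, or 20.3%, and for 8.38% of all. Of the 103 falls, 63 of 85 were below 0 in disomes, with a median of -0.23. These ratios have no test, since ASCC3 knockdown has 1 disome library of 1654719 counts, and the combined knockdown has 2297309 and 3936378.

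4EHP siRNA was also given without ASCC3 siRNA, and this comparison with control cells shares no library with the one above. It changed 269 transcripts (0.910%; edgeR), of which 107 rose (0.362%) and 162 fell (0.548%). Of the 141 transcripts that rose on top of ASCC3 siRNA, 113 were above 0 without it, where 47.9% of all tested were, and their median log2 fold change was 0.23 beside -0.01 for all. Called higher in both were 19, which is 13.5% of the 141 and 17.8% of the 107. Of the 103 that fell, 83 were below 0 without ASCC3 siRNA, with a median of -0.34. Called lower in both were 45, which is 43.7% of the 103 and 27.8% of the 162. The shared counts moved with the libraries: without ASCC3 replicate 2 they were 10 rises and 12 falls, without combined replicate 1, 20 and 25, and without combined replicate 2, 12 and 19. They were 9 and 34 without control replicate 1, 6 and 32 without control replicate 2, 12 and 33 without 4EHP replicate 1, and 7 and 32 without 4EHP replicate 2. With DESeq2 in both comparisons they were 6 and 23. Over the 7993 transcripts at 8 CPM or more, the fold changes of both comparisons correlated at 0.44 (Pearson; Spearman 0.37), and at 0.16 over all 29553 (Spearman 0.19). The 141 and 103 members also lay on the same side in RNA with 4EHP siRNA alone for 101 of 137 rises and 88 of 102 falls, where 53.8% of all transcripts tested were above 0. In that RNA comparison, 11 of 34491 transcripts were called, all lower (0.0319%; edgeR), and 8 of the 11 were among the 103.

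**Figure D4:**
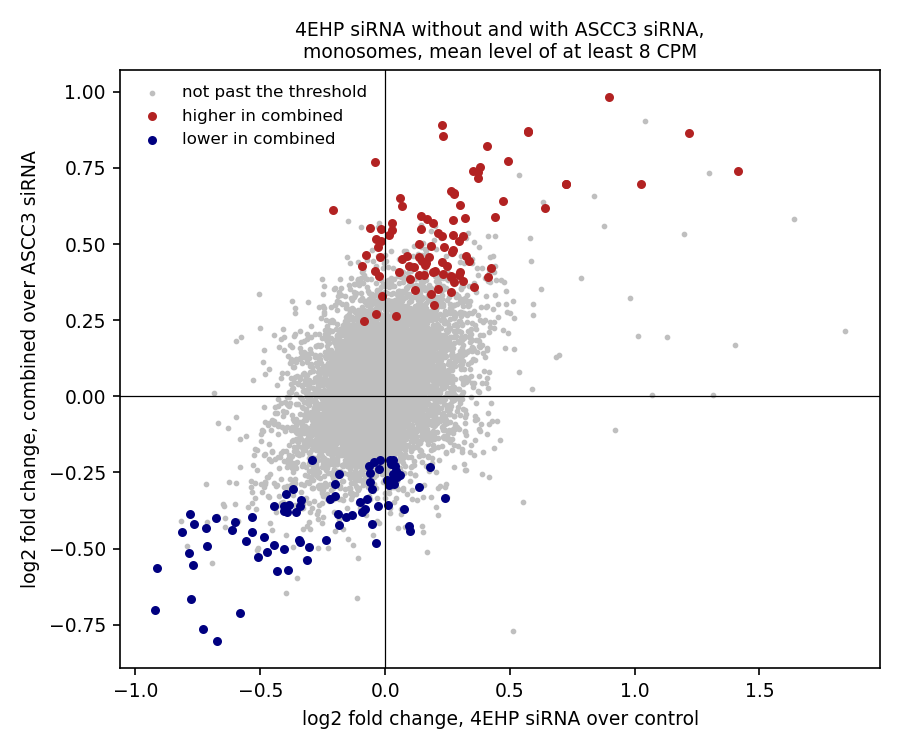
Log2 fold change of monosome counts with 4EHP siRNA over control (horizontal) and with the combined over ASCC3 siRNA (vertical) for the 7993 transcripts with a mean of at least 8 CPM; red and blue points rose or fell in the combined knockdown. Most red points lie right of 0 and the lowest blue points lie left of 0, while a group of blue points near the middle has horizontal values around 0.

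The difference between both 4EHP effects was tested directly, as an interaction over the 8 libraries of these groups within the fit of all 10. It was called for 33 of 29553 transcripts (0.112%; edgeR), above 0 for 5 (0.0169%) and below 0 for 28 (0.0947%), with 1958 at an unadjusted p under 0.05. With TMM scaling it was above 0 for 2 and below 0 for 63, and without ASCC3 replicate 2 it was called for 17. Leaving out a control or 4EHP library also lowered the count: it was called for 5 transcripts without control replicate 2, for 8 without 4EHP replicate 2, for 22 without control replicate 1 and for 24 without 4EHP replicate 1, settings added after the data were seen.

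The 28 transcripts below 0 resembled each other in coding length. There were 23 with 100 to 140 codons (82.1%, against 12.6% of all tested), and their median was 128 codons. Only a few lengths made up most of them: 9 had 127 codons, 6 had 131, 3 had 104, and 129 and 137 codons were found for 2 each. Over all tested transcripts of these lengths the effects were near 0, for example medians of -0.04 without and 0.01 with ASCC3 siRNA for the 106 transcripts of 127 codons. In each of the 28 the fold change was above 0 with 4EHP siRNA alone and below 0 on top of ASCC3 siRNA. The medians were 0.27 and -0.14. Of the 28, 24 were called higher without and 3 lower with ASCC3 siRNA, against 0.362% and 0.349% of all tested. The 28 were selected on the difference of these same fold changes, which favours opposite signs. In RNA, 27 of the 28 were tested, and 25 had a log2 fold change above 0 without and 24 with ASCC3 siRNA. The medians were 0.21 and 0.28, and 0 passed the RNA test in either setting. Transcripts of similar sequence can share reads, which these files cannot tell apart, so the 28 may stand for fewer signals.

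The 2 with the smallest p show the pattern. ENST00000578186.2 (104 codons) had 829.8 and 801.3 CPM in the control and 1040.5 and 1046.6 CPM with 4EHP siRNA, then 860.9 and 956.8 CPM with ASCC3 siRNA and 780.0 and 814.6 CPM in the combined knockdown. It was therefore raised by 4EHP siRNA alone (0.36, SE 0.05, edgeR's adjusted p = 1.2e-05), while on top of ASCC3 siRNA the groups did not overlap in the other direction but missed the threshold (-0.19, SE 0.05, edgeR's adjusted p = 0.062). The difference was -0.55 with an SE of 0.07 (edgeR's adjusted p = 3.2e-05). Its RNA level with ASCC3 siRNA was 357 and 340 CPM, and 483 and 465 CPM in the combined knockdown. RNA and monosome levels of this transcript thus lay on opposite sides, although neither change passed its test. The monosome change beyond the RNA change also missed the threshold (-0.63, SE 0.11, edgeR's adjusted p = 0.086).

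ENST00000331380.3 (130 codons) had 510 and 495 CPM of monosomes in the control and 668 and 665 CPM with 4EHP siRNA. With ASCC3 siRNA it had 606 and 619 CPM and in the combined knockdown 563 and 562 CPM. The difference of the effects was -0.53 with an SE of 0.07 (edgeR's adjusted p = 3.2e-05). The calls of ENST00000578186.2 and ENST00000331380.3 held under all 15 alternatives.

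The 5 transcripts above 0 had fold changes below 0 with 4EHP siRNA alone and above 0 on top of ASCC3 siRNA, with medians of -0.29 and 0.43. Of these 5, 2 were called lower without and 2 higher with ASCC3 siRNA, against 0.548% and 0.477% of all tested. Their selection on the difference favours opposite signs here too. With ASCC3 siRNA alone over control, the log2 fold changes of these 5 were -1.66, 0.16, -0.90, -0.61 and -1.90. The value of 0.16 was not called (edgeR's adjusted p = 0.56), and the others had edgeR's adjusted p of 0.00067 or less. The dose of ASCC3 siRNA may differ between the groups, and its part in these differences was not tested. ENST00000262460.5 (197 codons) is also among the 10 largest rises. It had 22.9 and 24.5 CPM in the control and 21.9 and 24.1 CPM with 4EHP siRNA, which overlap, and 8.12 and 7.28 CPM with ASCC3 siRNA against 13.3 and 12.6 CPM in the combined knockdown. The transcript was low in both groups with ASCC3 siRNA, and less so with 4EHP siRNA added: the difference of the 4EHP effects was 0.81 with an SE of 0.17 (edgeR's adjusted p = 0.026). RNA lay in the same order, at 17.5 and 15.7 CPM in the control, 6.94 and 7.96 CPM with ASCC3 siRNA and 8.77 and 9.52 CPM in the combined knockdown, with no RNA call between the latter (0.30, SE 0.13, edgeR's adjusted p = 0.43).

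ENST00000368222.8 (139 codons) had 11.5 and 12.0 CPM in the control, 8.92 and 7.80 CPM with 4EHP siRNA, 12.6 and 13.4 CPM with ASCC3 siRNA and 18.1 and 15.8 CPM in the combined knockdown. It was lowest with 4EHP siRNA alone and highest in the combined knockdown, and the difference of the effects was 0.84 with an SE of 0.18 (edgeR's adjusted p = 0.028). Each of these 2 differences was lost in 5 of 14 alternatives. Both were lost without ASCC3 replicate 2, without control replicate 2 and without 4EHP replicate 2. That of ENST00000262460.5 was also lost without combined replicate 2 or 4EHP replicate 1, and that of ENST00000368222.8 without combined replicate 1 or control replicate 1.

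**Figure D5:**
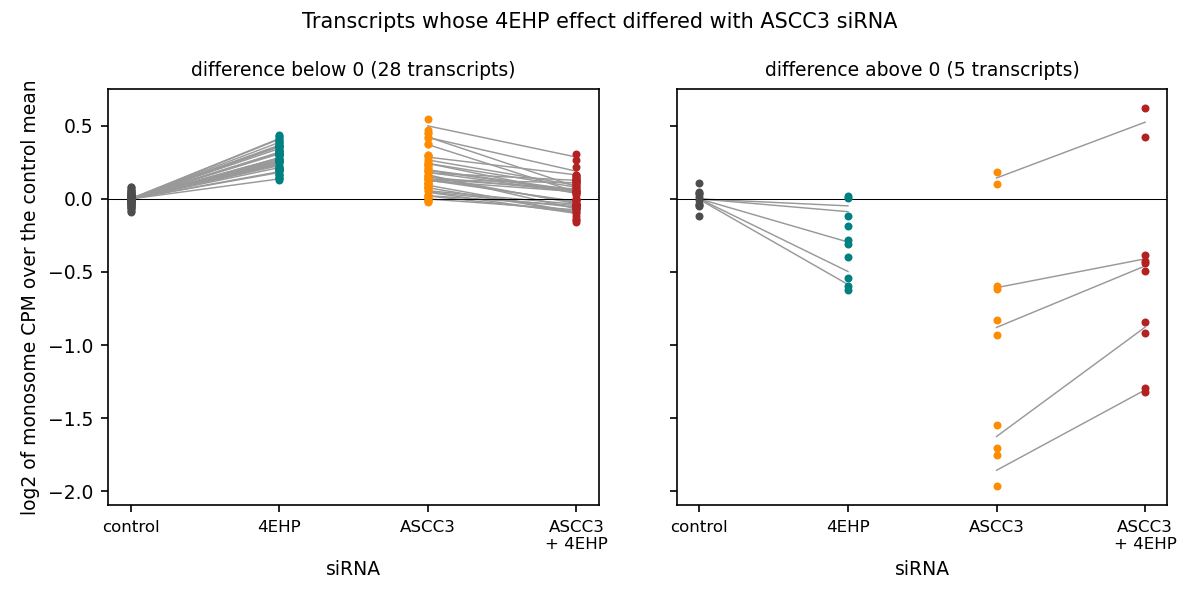
Monosome level of the 33 transcripts whose 4EHP effect differed with ASCC3 siRNA, as log2 of CPM over the control mean, in control, 4EHP, ASCC3 and combined knockdown libraries; points are libraries and lines join group means without and with 4EHP siRNA. The 28 transcripts at left rise from control to 4EHP and go down from ASCC3 to the combined knockdown, and the 5 at right go the other way.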

How the data were processed

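Per the labels, lysates were digested with RNase I, ribosomes pelleted and footprints size-selected, and RNA-seq used a stranded kit. The deposited files hold whole-number counts per transcript and a length, read here as coding length in codons. STAR 2.7.0a, UMI-tools 1.1.1 and the build hg38 are recorded in the submitters' processing notes; the counter is not given in the sources used here. Counting overlapping isoforms in full, as these files appear to do, repeats reads and enlarges the total count.

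Isoforms at most 40 lines apart were joined where their replicate differences correlated above 0.7 (transcripts with at least 500 counts), which left 55481 features. The design had assumed genes; transcripts were tested in their place because no table pairs the IDs with symbols. For the same reason the fixed gene lists, the siRNA targets and the cell line markers were not examined. A further 126981 transcripts in the RNA-seq files have 0 counts and no coding length.

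The test was edgeR's quasi-likelihood F test (4.0.16, R 4.3.3) on counts scaled by the total count, with a minimum count of 10 in edgeR's filter and Benjamini-Hochberg adjustment over all transcripts tested, two-sided, at 0.05. Monosome and RNA-seq counts were each fitted with all groups of the knockdown arm. Translational efficiency was fitted in 1 model over 8 monosome and 8 RNA-seq libraries, without the ABCE1 knockdown. DESeq2 1.42.0, TMM, no filter, uncollapsed transcripts, a replicate block and leaving out each library of the ASCC3 and combined knockdowns were alternatives; for the interaction and for 4EHP over control, control and 4EHP libraries were also left out, added after seeing the data. Scripts were tested on simulated data. The chi-square per degree of freedom between replicates was 1.32 or more for the 12 pairs of the arm (5 monosome, 4 RNA-seq and 3 disome), so no pair was counted as 1 library. An exact permutation test of 2 against 2 libraries cannot go below p = 0.333 and was not used. Listed transcripts were the 10 largest rises and falls with adjusted p under 0.05, a mean of at least 8 CPM and no overlap of libraries, and the smallest p values of the interaction; from these, 2 IDs in each direction are printed. RNA transcripts were singled out after their values were seen, by smallest p in each direction. The comparison, members and lists were chosen with earlier results of these data known.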

Additional observations from a re-analysis of the deposited data

Results flagged for a closer look

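The effect of 4EHP siRNA on monosome counts differed between cells with and without ASCC3 siRNA for 33 transcripts, by edgeR's interaction test at an adjusted p under 0.05, and for 5 without control replicate 2. The difference (log2, with minus without ASCC3 siRNA) was 0.81 for ENST00000262460.5 and 0.84 for ENST00000368222.8, and both calls were lost without ASCC3 replicate 2, control replicate 2 or 4EHP replicate 2. It was -0.55 for ENST00000578186.2 and -0.53 for ENST00000331380.3, which passed in every alternative run. A difference in the dose of ASCC3 siRNA between the groups, which the labels leave possible, was not tested. Groups of 2 libraries are too small for a check of single libraries that stand apart.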

How the results depend on the processing

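ASCC3 replicate 1 held the fewest counts of the 10 monosome libraries (4677576), which limits transcripts with few counts. For monosomes in the combined over the ASCC3 knockdown, 244 calls became 122 with DESeq2, which gave an adjusted p to only 3770 of 29553 transcripts, 760 when isoforms were not joined, 61 in a fit of the 4 libraries alone, and 50 to 174 when a library was left out. RNA-seq went from 15 to 50 with DESeq2, 635 with no count filter, 39 without joining, 34 in a fit of its 4 libraries, and 1 to 5 with a library left out. Translational efficiency went from 0 to 23 with DESeq2, 26 with no filter, 9 without joining and 0 to 3 with a library left out. The difference of the 4EHP effects went from 33 to 65 with TMM, 70 with DESeq2 size factors, 57 with no filter, 94 without joining and 5 to 44 with a library left out. 4EHP knockdown over control, whose alternatives were chosen after seeing the data, went from 269 to 129 with DESeq2 and 99 to 122 with a library left out. The cause of these moves was not tested, except that fewer libraries entered where some were left out. Of 14 shares of counts by length class, 12 moved by more than their SD without joining. No listed transcript changed direction.

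With the replicate number as a block, calls numbered 488 for monosomes, 21 for RNA-seq, 3 for translational efficiency, 94 for the difference of effects and 538 for 4EHP over control. Shared rises and falls with 4EHP over control became 42 and 63. The numbers were not taken to pair the libraries, since the labels name no shared batch and there are only 2 numbers. Deviations of same-numbered monosome libraries correlated at 0.26 between ASCC3 and combined knockdown, at 0.17 to 0.30 over the 6 pairs of groups without the control, and at 0.03 to 0.09 with it. In RNA-seq the correlation between ASCC3 and combined libraries was -0.45, and crossing the numbers, chosen after seeing the data, gave 67 calls.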
